A study of Mus musculus with 8 samples.

Results

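MHC class I and class II molecules carry peptides to the cell surface, where T cells read them. A class I molecule pairs a heavy chain with beta-2 microglobulin, is made by nearly all nucleated cells and shows peptides from proteins made inside the cell. A class II molecule pairs an alpha with a beta chain, is made mainly by macrophages, dendritic cells and B cells and shows peptides from material taken up from outside, and in the heart the resident macrophages are a known source of it. The genes described here were 10 of the 16994 genes of the deposited table, listed by symbol and chosen with earlier results of these data known. The class II pathway was represented by 6 of them, *H2-Aa*, *H2-Ab1*, *H2-Eb1*, *H2-DMa*, *Cd74* and *Ciita*, and the class I pathway by 4, *H2-K1*, *H2-D1*, *B2m* and *Tapbpl*. A mean of at least 1 CPM (a count scaled to the total of its library) was reached by 9 of the 10, so those were tested, and *H2-DMa*, with a mean CPM of 0.404, is given by its counts.

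RNA was sequenced from heart tissue of WT mice and of TKO mice, which lack TIGAR, a regulator of glycolysis, in the whole body. The regions were the left ventricle and the infarct, border and remote zones, with 1 library per genotype and region and 8 libraries in all. The study's methods place the infarct at 16 weeks of age, by permanent ligation of the left anterior descending artery in male mice. The study names a pool of 3 mice per genotype for the infarct zone, and the sources used here give neither the time of tissue collection, nor the pooling of the other libraries, nor whether the left ventricle came from operated mice. With 1 library per group, a ratio between 2 libraries has no replicate check, and its 95% interval covers counting error only. Total counts per library ran from 27429240 to 33799249. Scaling factors by edgeR's TMM method were 1.54 in the WT and 1.26 in the TKO infarct zone and 0.866 to 0.956 elsewhere, so results for the infarct zone lean on the scaling. *Tigar* itself had 1965, 1066, 2215 and 1997 counts in the WT left ventricle, infarct, border and remote zones and 51, 87, 79 and 87 in the TKO libraries, which fits the labels in all 8.

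On the GRCm38 build, the H2 genes lie together on chromosome 17. *H2-K1* (ENSMUSG00000061232) opens this stretch at 33996017 to 34000347 on the minus strand, and *H2-D1* (ENSMUSG00000073411) closes it at 35262730 to 35267499 on the plus strand. Between them lie *H2-DMa* (ENSMUSG00000037649, 34119541 to 34139101, plus strand), *H2-Ab1* (ENSMUSG00000073421, 34257689 to 34269419, plus strand), *H2-Aa* (ENSMUSG00000036594, 34282744 to 34287823, minus strand) and *H2-Eb1* (ENSMUSG00000060586, 34305867 to 34316674, plus strand). The partners lie elsewhere. *B2m* (ENSMUSG00000060802) is on chromosome 2 at 122147686 to 122153083, *Tapbpl* (ENSMUSG00000038213) on chromosome 6 at 125223933 to 125231860 and *Ciita* (ENSMUSG00000022504) on chromosome 16 at 10480059 to 10528418, while *Cd74* is placed below. *Tigar*, the gene deleted in TKO, also lies on chromosome 6, at 127085116 to 127109557, so *Tapbpl* is on the chromosome of the knockout. All 10 genes are annotated as protein coding.

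Promoter sequences were read for letters that some genes of a class share. RefSeq windows of 300 bases on GRCm38.p6, from 250 before to 50 after the start, were found for 6 of the 10 genes (*H2-Aa*, *H2-Eb1*, *H2-DMa*, *H2-K1*, *H2-D1* and *B2m*). The class II chains are known for an X box followed by a Y box, which bind the RFX and NF-Y complexes that recruit CIITA. In the stretches of *H2-Aa* (chr17:34287864-34287907, minus strand) and *H2-Eb1* (chr17:34305773-34305815, plus strand) the capitals mark GCAAC, an X box core, and ATTGG, the inverted CCAAT letters of a Y box.
H2-Aa: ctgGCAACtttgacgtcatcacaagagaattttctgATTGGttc
H2-Eb1: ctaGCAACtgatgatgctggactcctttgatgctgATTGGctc
From the start of GCAAC to the start of ATTGG there were 33 bases in *H2-Aa* and 32 in *H2-Eb1*. GCAAC followed by ATTGG at a distance of 25 to 40 bases, on either strand, stood in the promoter windows of 0.892% of 27025 genes. It stood in neither of the 2 windows of *H2-DMa*, a class II gene, nor in those of the class I genes.

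The class I heavy chains are known for an NF-kB site next to an interferon response element. In *H2-K1* (chr17:34000427-34000461, minus strand) and *H2-D1* (chr17:35262920-35262954, plus strand) the capitals mark GGGGATTCCCC, an NF-kB site, and TTTCNNTT, which is AANNGAAA on the other strand, the core read by interferon regulatory factors. In *B2m* (chr2:122147544-122147569, plus strand) they mark AANNGAAA itself.
H2-K1: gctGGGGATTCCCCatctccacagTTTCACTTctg
H2-D1: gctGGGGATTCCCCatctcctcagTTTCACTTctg
B2m: acatgaAACTGAAAatgggaaagtcc
The *H2-K1* and *H2-D1* stretches matched at 34 of 35 bases. On either strand, GGGGATTCCCC stood in the windows of 9 of 27025 genes (0.0333%), whereas AANNGAAA stood in those of 26.7%. *B2m* did not hold GGGGATTCCCC, and AANNGAAA was also found in the class II genes *H2-Aa* and *H2-DMa* (1 of its 2 windows). The motifs were chosen after the sequences had been seen, and a match is a run of letters and not a measured binding site.

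The levels differed widely among the 10 genes. Expressed as TMM-scaled CPM per kilobase of the longest annotated transcript and averaged over the 8 libraries, *B2m* stood highest at 354, followed by *H2-D1* at 145.5, *Cd74* at 127, *H2-K1* at 124, *H2-Ab1* at 62.4 and *H2-Aa* at 26.0. *Tapbpl*, which encodes a tapasin-related editor of class I peptides, followed at 3.37, *Ciita*, the transcriptional activator of the class II genes, at 0.651, *H2-Eb1* at 0.554 and *H2-DMa* at 0.175. *B2m* ranged from 252 to 558 over the libraries and lay above every *H2-D1* value (112 to 228). The ranges of the neighbours from *H2-D1* down to *H2-Aa* overlapped, *Tapbpl* (2.89 to 4.69) lay apart from *H2-Aa* above and *Ciita* below, and the ranges of the last 3 genes overlapped. *H2-Eb1*, the beta chain of the I-E class II molecule, never exceeded 1.60% of the counts of *H2-Ab1*, the beta chain of the I-A molecule.

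**Figure D1:**
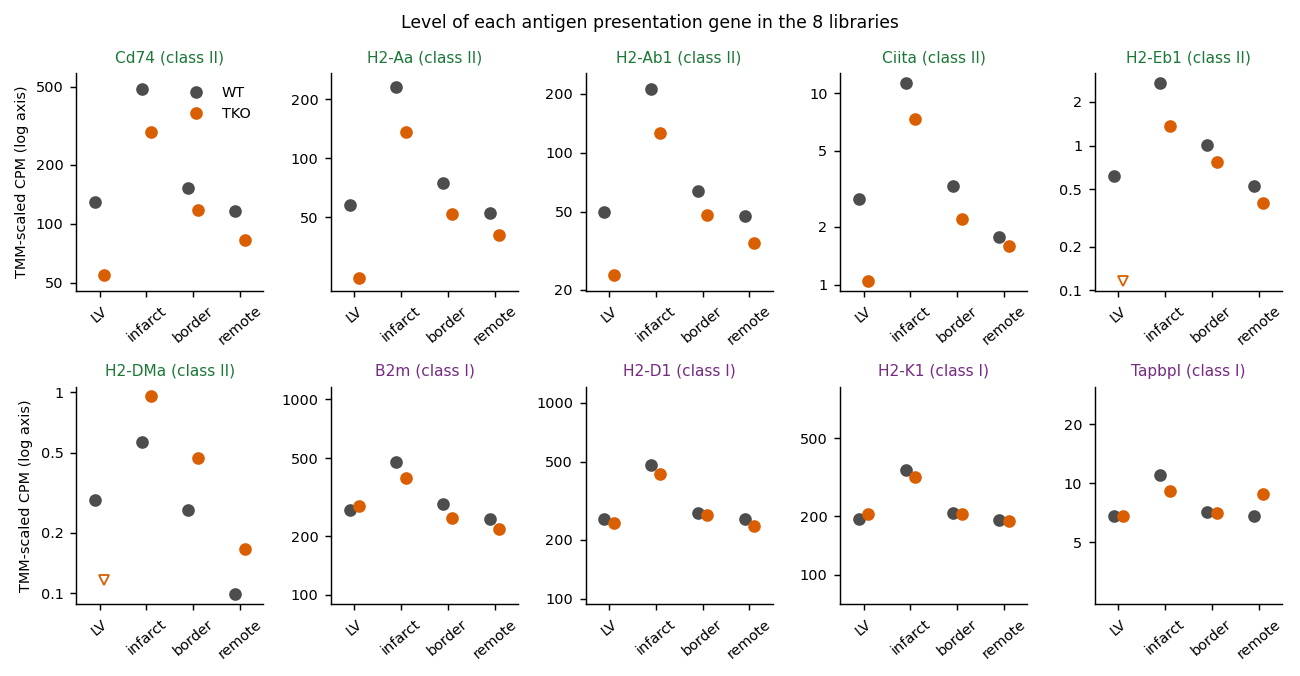
Level of each gene in the 8 libraries as TMM-scaled CPM on log axes (x axis: left ventricle, LV, and infarct, border and remote zones; grey, WT; orange, TKO; 1 point per library, no error bars since no group has a replicate). Open triangles stand at the level of 3 counts for libraries with 0 counts. Class II genes other than *H2-DMa* were lower in TKO in each region, and all genes stood highest in the infarct zone of their genotype.

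The genotypes were compared first, region by region, as TKO over WT ratios of TMM-scaled counts. *H2-Aa*, the alpha chain of the I-A class II molecule, had 1578, 9841, 2293 and 1609 counts in the WT left ventricle, infarct, border and remote zones and 636, 4852, 1541 and 1221 in the TKO libraries in the same order. Its ratio was 0.426 in the left ventricle (95% interval 0.388 to 0.468), 0.583 in the infarct zone (0.564 to 0.604), 0.698 at the border (0.654 to 0.745) and 0.767 in remote tissue (0.711 to 0.827). All 4 intervals lay below 1, and the left ventricle had the lowest ratio. *H2-Ab1* had 1373, 8932, 1979 and 1446 counts in WT and 616, 4490, 1434 and 1043 in TKO. The *H2-Ab1* ratios were 0.475 (0.431 to 0.522), 0.595 (0.574 to 0.617), 0.753 (0.703 to 0.806) and 0.729 (0.673 to 0.790) in the same order. The alpha and beta chains of I-A therefore stood below WT together in each region.

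*Cd74*, the invariant chain that guides class II molecules to the compartment where they are loaded, had 3550, 20567, 4678 and 3549 counts in WT and 1417, 10471, 3469 and 2485 in TKO. Its ratios were 0.422 (0.397 to 0.449) in the left ventricle, 0.602 (0.588 to 0.617) in the infarct zone, 0.770 (0.737 to 0.805) at the border and 0.708 (0.672 to 0.745) in remote tissue. *Cd74* (ENSMUSG00000024610) lies on chromosome 18 at 60803848 to 60812652, away from the H2 genes, and its order over the regions differed from that of *H2-Aa* only between the border and remote zones. *Ciita* had 77, 477, 101 and 54 counts in WT and 27, 262, 65 and 48 in TKO. Its ratios were 0.371 (0.230 to 0.582), 0.650 (0.557 to 0.757), 0.668 (0.482 to 0.922) and 0.898 (0.596 to 1.35), so that a difference in the remote zone was not detectable at this depth.

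The remaining class II genes had few counts. *H2-Eb1* had 17, 114, 31 and 16 counts in WT and 0, 49, 23 and 12 in TKO. Set against a floor of 3 counts per library, it was at least 5.36-fold lower in the TKO left ventricle, and its ratio was 0.509 in the infarct zone (0.356 to 0.717), whereas the intervals of the border zone (ratio 0.771) and remote zone (ratio 0.758) held 1. *H2-DMa*, a chain of the H2-DM molecule that exchanges peptides on class II, had 8, 24, 8 and 3 counts in WT and 0, 34, 14 and 5 in TKO. It was at least 2.52-fold lower in the TKO left ventricle and had ratios of 1.68, 1.82 and 1.68 in the zones, each with an interval that held 1. *H2-DMa* was thus the exception among the class II genes in the zones, at counts too low to show a difference there. In the WT left ventricle *H2-DMb1*, a beta chain of H2-DM, had 101 counts beside the 8 of *H2-DMa*. How reads were shared among H2 transcripts cannot be seen from the counts, so the zeros and bounds of *H2-Eb1* and *H2-DMa* are uncertain.

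The class I genes stood close to WT. *H2-K1*, a classical heavy chain, had 5323, 14499, 6423 and 5818 counts in WT and 5288, 11376, 6088 and 5703 in TKO, with ratios of 1.05, 0.929, 0.985 and 0.991. *H2-D1*, the other classical heavy chain measured, had 7029, 20289, 8466 and 7797 counts in WT and 6315, 15503, 7901 and 7105 in TKO, with ratios of 0.951, 0.904, 0.969 and 0.921. *B2m*, the light chain they share, had 7461, 20301, 9017 and 7436 counts in WT and 7355, 14225, 7374 and 6521 in TKO, with ratios of 1.04, 0.829, 0.849 and 0.886. The ratios of these 3 genes lay between 0.829 and 1.05, and with their high counts most of the intervals were clear of 1. *Tapbpl* had 186, 467, 220 and 207 counts in WT and 176, 326, 208 and 265 in TKO, with ratios of 1.001, 0.826, 0.982 and 1.29.

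Summarised by class, the median ratio of the 6 class II genes, with the genes at 0 set at their bound, was 0.410 in the left ventricle, 0.599 in the infarct, 0.761 at the border and 0.762 in remote tissue. The medians of the 4 class I genes were 1.02, 0.867, 0.976 and 0.956, beside medians over all 12999 tested genes of 1.01, 1.005, 0.998 and 0.992. In the left ventricle, 6 of the 10 genes, all of class II, were at least 2-fold lower in TKO after a prior count of 2, beside 3.56% of all tested genes. These 6 include *H2-DMa*, which was not among the tested genes, and *H2-DMa* and *H2-Eb1* had 0 counts in that TKO library. No gene of the 10 was 2-fold lower in the infarct, border or remote zone, beside 1.45%, 3.25% and 2.36% of all genes. In the infarct zone this count rested on the scaling. With total counts alone the median ratio of all tested genes fell to 0.820, that of the class II genes to 0.488 and that of the class I genes to 0.707, and 4 of the 10 genes were 2-fold lower, beside 3.78% of all genes.

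**Figure D2:**
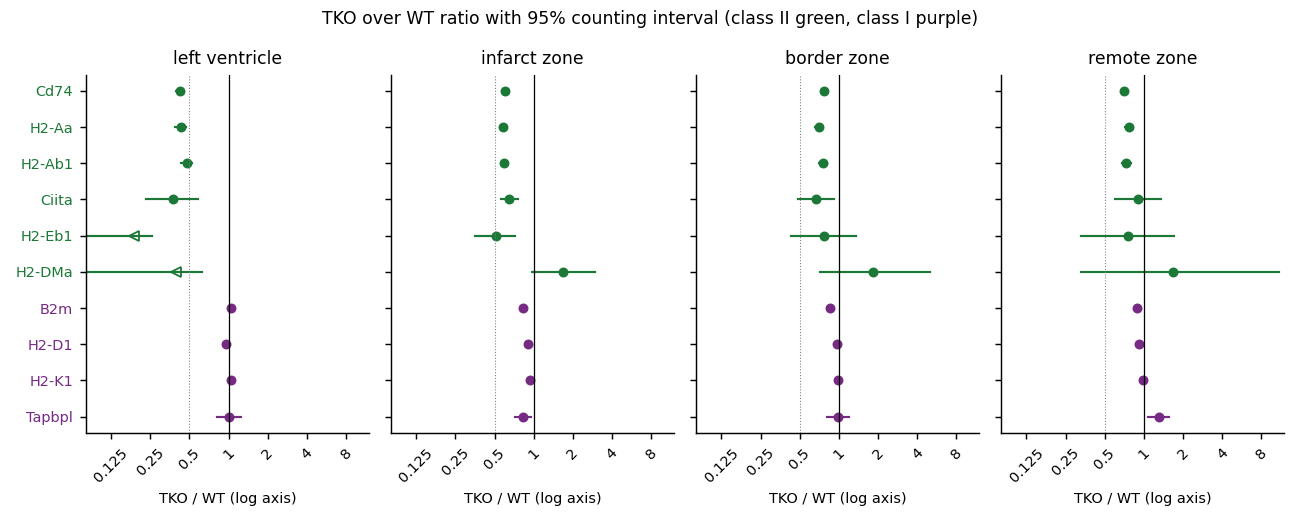
TKO over WT ratio of each gene in each region on a log axis; points are ratios of TMM-scaled counts, bars are 95% intervals for counting error only, and open arrows mark the bound for genes at 0 counts in the TKO left ventricle. The class II genes (green) sit left of the dotted line at 0.5 in the left ventricle and between 0.5 and 1 in the zones, apart from *H2-DMa*, while the class I genes (purple) sit near 1.

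A test across regions, with edgeR's quasi-likelihood method and Benjamini-Hochberg adjustment over 12999 genes, asked whether the genotypes differed when the 4 regions stood in as replicates. It bears on regions and not on mice, and the zones of a genotype, all taken after ligation, may share mice, so the regions are not independent. None of the 9 tested genes passed an adjusted p of 0.05, beside 0.0615% of all genes called lower and 0.0769% called higher. At an unadjusted p under 0.05, 4 of the 9 were lower in TKO (8.79% of all genes), and these were class II genes. The log2 fold change was -0.72 ± 0.14 (SE) for *H2-Aa*, -0.67 ± 0.12 for *H2-Ab1*, -0.71 ± 0.15 for *Cd74* and -0.68 ± 0.22 for *Ciita*, with edgeR adjusted p-values of 0.170, 0.158, 0.180 and 0.246. DESeq2's Wald test, with the same design, called 3 of the 9 lower in TKO, beside 1.65% of all genes. Those were *H2-Aa* (DESeq2 adjusted p = 0.00140), *H2-Ab1* (0.000892) and *Cd74* (0.00197), whereas *Ciita* had 0.168. The class I genes had log2 fold changes of -0.02 ± 0.08 for *H2-K1*, -0.10 ± 0.09 for *H2-D1*, -0.15 ± 0.10 for *B2m* and 0.01 ± 0.13 for *Tapbpl*, and neither tool called them.

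In direction, 6 of the 9 tested genes were lower in TKO in 4 of 4 regions, *H2-Aa*, *H2-Ab1*, *H2-Eb1*, *Cd74*, *Ciita* and *H2-D1*, beside 13.5% of all tested genes. The genotype difference of the left ventricle was larger than that of the zones for the 5 tested class II genes. This departure had an unadjusted p under 0.05 for these 5, beside 9.02% of all genes in that direction, and none passed the edgeR adjustment (0.423% of all genes called lower) or that of DESeq2. For *Cd74* the left ventricle lay -0.71 ± 0.21 (log2, SE) from the zones, with an edgeR adjusted p of 0.203, and for *H2-Aa* it lay -0.67 ± 0.20 from them, with an edgeR adjusted p of 0.205. In the class I genes the same departure ran from -0.01 to 0.29 in log2, with edgeR adjusted p-values of 0.511 to 0.988. These departures rest on 1 TKO and 1 WT left ventricle library, and that of *H2-Eb1* on 0 counts in the TKO one. With DESeq2 or with total counts, fewer of the 5 class II genes stood under an unadjusted p of 0.05. In the same test of the infarct zone, edgeR called 0 of the 9 genes (0% of all genes called higher and 0.00769% called lower), with 0 at an unadjusted p under 0.05, and DESeq2 called 0.

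The zones were then compared with the left ventricle of the same genotype. In the infarct zone the class II genes stood well above it, the class I genes less so. *Cd74* was 3.75-fold above it in WT and 5.35-fold in TKO, *H2-Aa* 4.04-fold and 5.53-fold, *H2-Ab1* 4.21-fold and 5.28-fold and *Ciita* 4.01-fold and 7.03-fold. *H2-Eb1* was 4.34-fold above it in WT and at least 11.8-fold in TKO, whose left ventricle had 0 counts. *H2-K1* was 1.76-fold and 1.56-fold higher, *H2-D1* 1.87-fold and 1.78-fold, *B2m* 1.76-fold and 1.40-fold and *Tapbpl* 1.63-fold and 1.34-fold. The TKO fold exceeded the WT fold for the class II genes and fell below it for the class I genes. This difference between genotypes was not tested, because each departure test above set a region against all the others and not the infarct zone against the left ventricle alone.

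With both genotypes as replicates, edgeR called 9 of the 9 tested genes higher in the infarct zone than in the left ventricle, beside 28.2% of all tested genes called higher and 28.6% called lower. The log2 fold change was 2.21 ± 0.21 (SE) for *H2-Aa* (edgeR adjusted p = 0.000723), 2.22 ± 0.18 for *H2-Ab1* (0.000480), 2.14 ± 0.22 for *Cd74* (0.000946), 2.33 ± 0.32 for *Ciita* (0.00183) and 2.85 ± 0.85 for *H2-Eb1* (0.0278). For class I it was 0.73 ± 0.12 for *H2-K1* (edgeR adjusted p = 0.00310), 0.87 ± 0.12 for *H2-D1* (0.00200), 0.65 ± 0.14 for *B2m* (0.00862) and 0.57 ± 0.18 for *Tapbpl* (0.0365). With at least 10 counts required in every library, which left out *H2-Eb1*, 8 of 8 were called, and *H2-Eb1* had reached the usual filter, with a mean CPM of 1.11, through its infarct zone counts. *Tapbpl* lost its call, with an edgeR adjusted p of 0.0545, when no filter on low counts was used. Total counts alone moved the median log2 fold change of all genes from 0.02 to 0.71 and the calls from 3670 higher and 3715 lower to 7869 and 1084, and the 9 genes were called higher under it too.

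The border and remote zones lay closer to the left ventricle. In the border zone the median fold of the class II genes was 1.23 in WT and 2.13 in TKO, and in the remote zone the medians were 0.874 and 1.52. The class I medians were 1.07 and 1.02 at the border and 0.992 and 0.948 in remote tissue. In these folds the TKO left ventricle, with the lowest class II levels of the 8 libraries, is the denominator for all 3 TKO zones. With both genotypes as replicates, edgeR called 0 of the 9 genes in the border zone (0.669% of all genes called higher), where 3 had an unadjusted p under 0.05 and were higher (11.4% of all genes) and DESeq2 called 2, *H2-Aa* and *H2-Ab1* (3.66% of all genes). In the remote zone edgeR and DESeq2 called 0 of the 9, beside 0% of all genes called by edgeR and 162 of 12999 by DESeq2. At an unadjusted p under 0.05 stood 0 of the 9 by edgeR, beside 1378 of all 12999 genes. By DESeq2 it was 1, *B2m*, beside 1117 of all 12999 genes.

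**Figure D3:**
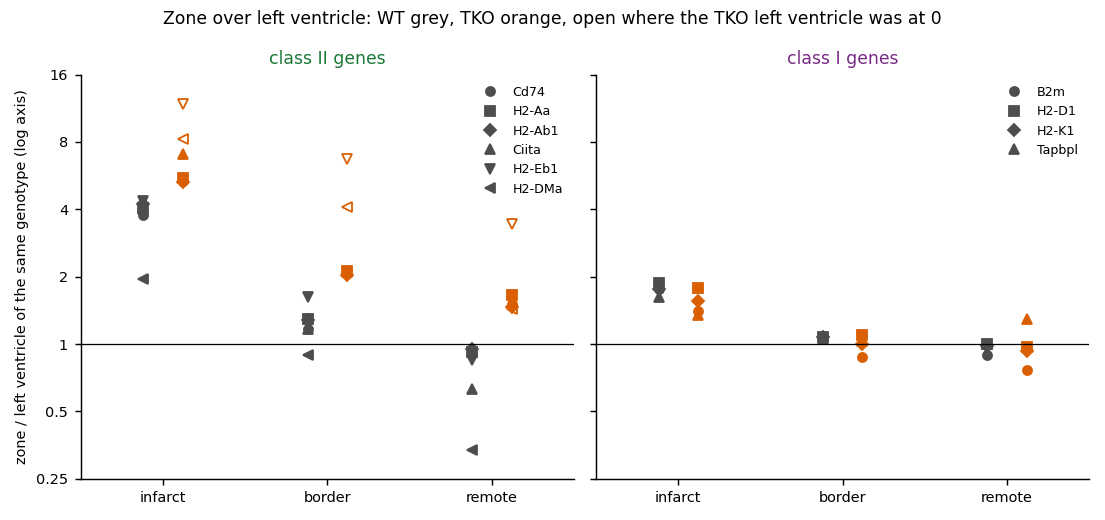
Fold of each zone over the left ventricle of the same genotype on a log axis (left, class II genes; right, class I genes; grey, WT; orange, TKO; 1 symbol per gene). Open symbols are lower bounds, because *H2-Eb1* and *H2-DMa* had 0 counts in the TKO left ventricle. In the infarct zone the class II genes lie between 1.94-fold and at least 11.8-fold and the class I genes between 1.34-fold and 1.87-fold.

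Within each library the most abundant genes of a class kept similar proportions, and the others less so. The count of *H2-Aa* over that of *H2-Ab1* ran only from 1.03 to 1.17 over the 8 libraries, and that of *Cd74* over *H2-Aa* from 2.04 to 2.25. *H2-K1* over *B2m* ran from 0.712 to 0.875 and *H2-D1* over *B2m* from 0.859 to 1.09. *Ciita* over *H2-Ab1* ran more widely, from 0.0373 to 0.0584, as did *Tapbpl* over *B2m*, from 0.0229 to 0.0406. *H2-Eb1* ran from 0% to 1.60% of *H2-Ab1* and *H2-DMa* from 0% to 0.976%. The summed counts of *H2-Aa*, *H2-Ab1* and *Cd74* over those of *H2-K1*, *H2-D1* and *B2m*, in contrast, ran from 0.141 in the TKO left ventricle to 0.714 in the WT infarct zone. These ratios need no scaling between libraries. As a description over the 8 libraries, which share the infarct-to-ventricle contrast and are not independent replicates, the log2 level of *H2-Ab1* correlated with that of *Cd74* at r = 0.999, *H2-Aa* at 0.998 and *Ciita* at 0.989, and with that of *B2m* at 0.871. The 5 genes outside the 10 that were most like *H2-Ab1* were *Clec4a1* (0.999), *Kif21b* (0.998), *Dnajc1* (0.997), *H2-DMb1* (0.995) and *Cnn3* (0.995). Those most like *B2m* were *Sqle* (0.998), *Rpn2* (0.993), *Nrip1* (0.989), *Cyp20a1* (0.986) and *Pilra* (0.985), with *H2-K1* at 0.955 and *H2-D1* at 0.949.

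Genes that share the chromosome 17 stretch with the H2 genes were examined next. The table held 76 genes from *H2-K1* to *H2-D1*, of which 61 were neither among the 10 nor on another antigen presentation list. Over 4 regions the geometric mean TKO over WT ratio of the 50 tested neighbours had a median of 1.01 and ran from 0.536 to 2.48, beside 0.605 for *H2-Aa*, 0.628 for *H2-Ab1*, 0.988 for *H2-K1* and 0.936 for *H2-D1*. The class II genes on other chromosomes had values of 0.610 (*Cd74*) and 0.626 (*Ciita*), and the class I genes *B2m* and *Tapbpl* had 0.898 and 1.01. Among the 50 neighbours, edgeR called 1 by genotype, beside 0.0615% of all genes called lower, *Cfb*, a complement factor, which was named here because it was the single call (geometric mean ratio 0.603, edgeR adjusted p = 0.0431). Of the 50, 7 had an edgeR unadjusted p under 0.05 by genotype (16.2% of all genes). In 4 of 4 regions, 5 of the 50 were lower in TKO (13.5% of all genes) and 8 were higher (13.2%).

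**Figure D4:**
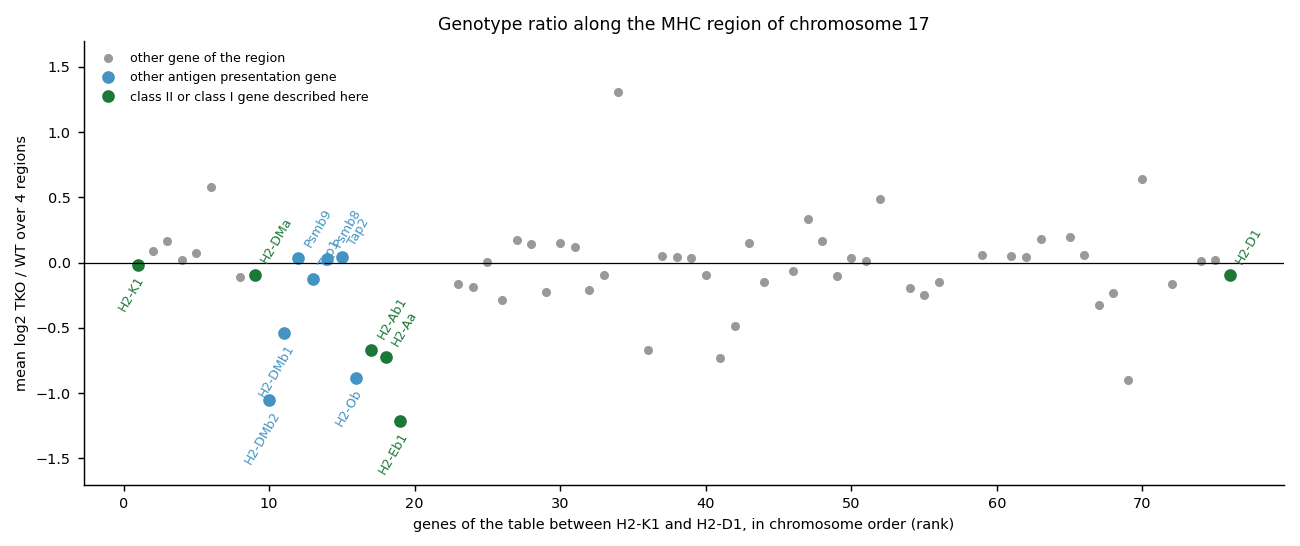
Mean log2 TKO over WT ratio over 4 regions (prior count of 2) for the genes of the MHC region in chromosome order, from *H2-K1* to *H2-D1* (1 point per gene; green, the genes described here; blue, other antigen presentation genes; grey, other tested genes). Class II genes from *H2-DMb2* to *H2-Eb1* fall below 0, and the grey genes scatter around it.

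Other genes of both pathways were followed through lists. Of the class II pathway list, 15 of 19 genes were in the table and 13 were tested, and edgeR called 0 by genotype, 5 having an unadjusted p under 0.05 and a lower level in TKO (8.79% of all genes). The median genotype fold of the list was 0.948, beside 0.998 over all genes tested. DESeq2 called 1 lower, *Ctss*, the protease that trims the invariant chain (1.65% of all genes). *H2-DMb1* and *H2-DMb2*, the beta chains of H2-DM, had 101 and 34 counts in the WT left ventricle and 53 and 11 in the TKO left ventricle. Their geometric mean ratios over the regions were 0.688 and 0.482, with edgeR adjusted p-values of 0.195 and 0.183. *H2-Ob*, a chain of the H2-DO molecule that restrains H2-DM, had a geometric mean ratio of 0.543 and was lower in 3 of 4 regions. The X and Y box factors in this list, *Rfx5*, *Rfxap*, *Rfxank*, *Nfya*, *Nfyb* and *Nfyc*, had geometric mean ratios between 0.947 and 1.10. The proteases *Ctsl* and *Lgmn*, the most abundant genes of the list, had values of 0.948 and 0.881. Against the left ventricle, 8 of the 13 were called higher and 1 lower in the infarct zone, beside 28.2% and 28.6% of all tested genes.

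The class I pathway list had 13 genes, all tested, with a median genotype fold of 1.02. edgeR and DESeq2 called 0 by genotype, and 1 had an unadjusted p under 0.05 (16.2% of all genes), *Psme1*, a proteasome activator subunit, at a geometric mean ratio of 1.21. The peptide transporter genes *Tap1* and *Tap2* had values of 0.917 and 1.03, tapasin (*Tapbp*) 0.869 and the immunoproteasome subunits *Psmb8* and *Psmb9* 1.02 and 1.02. *Nlrc5*, the class I counterpart of CIITA, had 96, 330, 42 and 31 counts in WT and 74, 186, 93 and 80 in TKO. Its ratios of 0.816, 0.667, 2.30 and 2.61 pointed both ways. Against the left ventricle, 4 of the 13 were called higher in the infarct zone, *Tap1*, *Tapbp*, *Psmb8* and *Psmb9*, and 4 lower, *Canx*, *Calr*, *Psme1* and *Psme2*, shares close to the 28.2% and 28.6% of all tested genes.

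Of the class I-like list, 17 of 26 genes were in the table and 14 were tested, with a median genotype fold of 0.940. edgeR called 0 by genotype, with 5 at an unadjusted p under 0.05 (16.2% of all genes), and DESeq2 called 3, all higher (0.985% of all genes). Those were *H2-Q6*, *H2-Q7* and *H2-T24*, each higher in TKO in 4 of 4 regions, opposite to *H2-D1*, beside 13.2% of all genes. *H2-Q6* had 733, 1381, 857 and 866 counts in WT and 1128, 1589, 1141 and 1093 in TKO. *H2-T24* had 181, 239, 203 and 191 counts in WT and 281, 369, 269 and 337 in TKO. Their geometric mean ratios were 1.41 and 1.64, with edgeR adjusted p-values of 0.134 and 0.131. *H2-Q6* and *H2-Q7* are near-identical paralogs, and how the reads were shared between such genes and *H2-K1* or *H2-D1* cannot be seen from the counts, so these values are uncertain. Against the left ventricle, 8 of the 14 were called higher in the infarct zone (28.2% of all genes). The most abundant genes of this list, *H2-Q4* and *Fcgrt*, had geometric mean ratios of 1.04 and 0.937.

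The interferon gamma axis, a known inducer of *Ciita*, was represented by 10 genes, of which 9 were tested, with a median genotype fold of 0.934. edgeR called 0 by genotype, with 2 lower at an unadjusted p under 0.05 (8.79% of all genes), and DESeq2 called 2 lower, *Ifngr1* and *Irf8* (1.65% of all genes). *Irf8*, a transcription factor of myeloid cells, had 186, 1251, 335 and 277 counts in WT and 153, 652, 223 and 164 in TKO. *Irf1* had a geometric mean ratio of 0.961, *Ifngr2* of 1.13 and *Jak1* of 0.969.

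Markers of other cells were read beside the class II genes. These lists were chosen with earlier results of these data known, so their directions describe the libraries and are not independent support. The 4 leukocyte genes *Ptprc*, *Cd52*, *Coro1a* and *Laptm5* were each lower in TKO in 4 of 4 regions (13.5% of all genes). edgeR called 2 of them lower by genotype, *Ptprc* and *Coro1a* (0.0615% of all genes), and DESeq2 4 (1.65% of all genes). Their summed CPM was 50.2, 253, 88.2 and 65.4 in the WT left ventricle, infarct, border and remote zones and 34.9, 154, 54.6 and 43.7 in TKO, giving ratios of 0.696, 0.610, 0.619 and 0.668. The summed CPM of the class II genes over that of these leukocyte genes was 4.80, 3.74, 3.34 and 3.35 in WT and 2.98, 3.65, 4.04 and 3.66 in TKO. Over the summed CPM of a macrophage list it was 0.556, 0.527, 0.435 and 0.349 in WT and 0.281, 0.417, 0.434 and 0.362 in TKO. Both quotients were lower in TKO in the left ventricle and the infarct zone, though the leukocyte quotients of the infarct zone were close (3.74 and 3.65). Both were higher in TKO in the remote zone, though the macrophage quotients there were close (0.349 and 0.362). At the border the leukocyte quotient was higher in TKO, while the macrophage quotient was nearly equal (0.435 and 0.434). In bulk tissue, fewer cells of a type and less RNA per cell cannot be told apart.

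Single lineages were read from longer lists. The macrophage list had 10 of 11 genes lower in TKO in the left ventricle and summed ratios of 0.856, 0.754, 0.750 and 0.703, with 10 of 11 lower at an unadjusted p under 0.05 (8.79% of all genes), 0 called by edgeR (0.0615%) and 4 by DESeq2 (1.65%). The B cell list, of which 4 of 6 genes were tested, had summed ratios of 0.195, 0.520, 0.613 and 0.674. Its summed level was 10.7 CPM in the WT left ventricle and 2.09 CPM in the TKO left ventricle. The dendritic cell list had summed ratios of 0.777, 0.742, 0.926 and 0.830, the T cell list 0.546, 0.598, 0.984 and 1.10 and the monocyte list 0.904, 0.423, 0.382 and 0.158. The last of these leaned on *Chil3*, with 651 counts in the WT and 6 in the TKO remote zone, where 3 of the 4 monocyte genes were lower in TKO. The endothelial list, in contrast, had ratios of 1.09, 1.08, 0.972 and 1.08, and the fibroblast list 1.08, 0.835, 0.649 and 0.749. The cardiomyocyte list had summed ratios of 0.956, 2.16, 1.26 and 1.16, and its summed level fell to 5573 CPM in the WT and 12024 CPM in the TKO infarct zone, from 26594 and 25424 in the left ventricles. The atrial list, led by *Nppa*, had ratios of 1.59, 0.687, 0.286 and 0.277. Its less abundant genes *Myl7*, *Sln* and *Myl4* had infarct zone ratios of 0.0763, 0.0394 and 0.143, far below that of the sum. *Myl7* had 152 counts in the WT left ventricle and 5227 in the WT remote zone, and 152 and 2031 in TKO. The part of each list in the class II and class I differences was not tested.

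**Figure D5:**
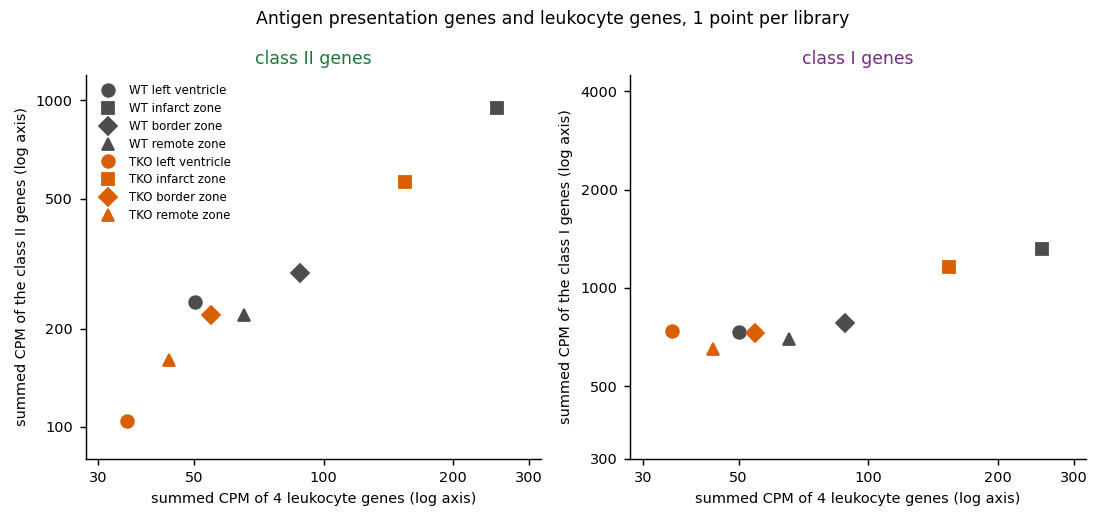
Summed CPM of the 6 class II genes (left) and of the 4 class I genes (right) against the summed CPM of 4 leukocyte genes, on log axes with 1 point per library (grey, WT; orange, TKO; circles, left ventricle; squares, infarct; diamonds, border; triangles, remote zone). The class II sum rises from 104 CPM in the TKO left ventricle to 944 CPM in the WT infarct zone. The class I sum rises from 651 CPM in the TKO remote zone to 1313 CPM in the WT infarct zone.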

How the data were processed

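RNA of WT and TKO hearts was sequenced as 8 libraries, 1 per genotype and region. The authors used Trim Galore 0.6.5 for trimming, quantified transcripts with kallisto 0.46 against the mm10 transcriptome and summed them to genes with tximport, and the labels also name edgeR 3.34.1. The deposited table holds the resulting estimated counts as whole numbers, without normalization. Estimated counts share reads between similar genes, so values of near-identical H2 genes, and the low counts of *H2-Eb1* and *H2-DMa*, are uncertain.

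Groups came from the labels. Counts were analysed in R 4.3.3 with edgeR 4.0.16 (TMM factors, quasi-likelihood test, Benjamini-Hochberg adjustment over 12999 genes whose mean CPM reached 1, called at an adjusted p under 0.05) and DESeq2 1.42.0. The model had terms for region and genotype, and a further term for the departure of the left ventricle or of the infarct zone, so p-values measure only the spread between these libraries. Ratios between 2 libraries carry exact Clopper-Pearson 95% intervals on the counts, 2-fold calls used a prior count of 2, and a library at 0 was set at 3 counts. Intervals cover counting error only, since no molecular identifiers are given. Both tools were tested on simulated data with known changes. Alternatives were total counts, DESeq2 size factors, TMM over the libraries compared, the 13 mitochondrial DNA-encoded genes left out, no prior count, 2 other filters and leaving out each region.

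All 10 genes were named, and from each list the 2 most abundant genes, the 2 with the largest mean log2 ratio among tested genes and a few set by symbol, together with the 5 genes most like *H2-Ab1* and *B2m*. Other genes are named where a count of 5 or fewer turned on them, after their values were seen. The 10 genes and the lists were chosen with earlier results of these data known. Gene positions came from GENCODE M21, with 16867 of 16994 genes found, and promoter sequences from RefSeq (GRCm38.p6), read with Python 3.11.15 and pandas 2.3.3. Figures were drawn with matplotlib 3.10.9. Promoter windows of *H2-Ab1*, *Ciita*, *Tapbpl* and *Cd74*, and protein sequences, were not used here. Values of 2 genes of the lists are not reported here.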

Additional observations from a re-analysis of the deposited data

Results flagged for a closer look

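In 3 class I genes the TKO over WT ratio lay on opposite sides of 1 in different regions, with counting intervals clear of 1 on both sides. *H2-K1* had a ratio of 1.05 in the left ventricle (95% interval 1.01 to 1.09) and 0.929 in the infarct zone (0.906 to 0.952). *B2m* had 1.04 in the left ventricle (1.01 to 1.08) against 0.829 in the infarct, 0.849 at the border and 0.886 in remote tissue. *Tapbpl* had 1.29 in the remote zone (1.07 to 1.56) and 0.826 in the infarct zone (0.715 to 0.954). The departure of the left ventricle from the zones, with 1 library per genotype behind it, had an edgeR adjusted p of 0.785 for *H2-K1* and 0.511 for *B2m*. For the infarct zone the same test gave 0.963 for *H2-K1*, 0.962 for *B2m* and 0.926 for *Tapbpl*, and the departure of the remote zone for *Tapbpl* was not tested. With total counts alone the infarct zone ratios became 0.757 for *H2-K1*, 0.676 for *B2m* and 0.674 for *Tapbpl*. Intervals that cover counting error only are narrow for genes with high counts, so opposite signs at ratios this near 1 have no replicate behind them.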

How the results depend on the processing

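The 6 class II genes at least 2-fold lower in the TKO left ventricle remained so under each scaling tried and without a prior count, and their median ratio there ran from 0.405 to 0.411. In the infarct zone the count of genes 2-fold lower went from 0 to 4 with total counts alone and the class II median to 0.488, while the other scalings gave 0. The calls of the tested genes by genotype went from 0 with edgeR to 3 with DESeq2, and those of the border zone from 0 to 2, and leaving out each region in turn left the genotype count at 0. The adjusted p of *H2-Ab1* by genotype ran from 0.000892 (DESeq2) to 0.542 (edgeR without the border zone) over all alternatives. The cause was not tested.

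The sign changed, with no call on either side, for 9 values near 0. These were the genotype log2 fold change of *H2-K1*, which ran from -0.0455 to 0.00330 when a region was left out, that of *Tapbpl*, which ran from -0.102 to 0.109 when a region was left out and was -0.0905 with total counts, *B2m* in the border zone (0.0392) and *H2-D1* in the remote zone (0.0222) with total counts, the left ventricle departure of *Tapbpl* (0.121) and the infarct departures of *H2-Eb1* (-0.110) and *Ciita* (-0.170) with total counts, and that of *Cd74* without a filter (0.00456).

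Over all genes, 18 calls by genotype became 342 with DESeq2, 56 with total counts and 3 to 80 when a region was left out (80 without the left ventricle, 6 without the infarct zone, 5 without the border zone and 3 without the remote zone). Border zone calls went from 93 to 576 with DESeq2 and 200 with total counts, and remote zone calls from 0 to 162, 18, 3 without a filter and 3 with at least 10 counts in every library. Calls of the left ventricle departure went from 84 to 280 with DESeq2, 275 with total counts and 140 with at least 10 counts in every library, and those of the infarct departure from 1 to 154 with DESeq2 and 0 with at least 10 counts. Every genotype test was paired by region, and no fit by replicate number was made, since each group holds 1 library. Low counts limited *H2-Eb1*, *H2-DMa* and *Ciita*, whose intervals held 1 in some regions.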
